A study of Mus musculus with 4 samples.

Results

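Resting B cells of the kappa light chain type that carried the transcript of the low-affinity IgE receptor CD23 (Fcer2a) were examined in the lungs and blood of melanoma-bearing mice. A barcode entered this class when it had at least 200 genes and at most 10% mitochondrial UMIs (unique molecular identifiers, 1 per captured transcript), at least 3 UMIs over Cd79a, Cd79b and Ms4a1, no Cd3e or Cd3d UMI, less than 1% S100a8 and S100a9 UMIs, no more lambda (Iglc1 to Iglc3) than kappa (Igkc) UMIs, fewer than 2 UMIs over Cd83 and Cd86, and at least 1 Fcer2a UMI. The rule selected 3168 of 106391 barcodes, or of 49121 that passed the gene and mitochondrial limits and 16558 that passed the B cell gate. They comprised 224 cells of metastasis lung, 600 of sham lung, 301 of metastasis blood and 2043 of sham blood. All mice were female C57BL/6 animals aged 6 to 8 weeks. On day 0 the metastasis arm received 800000 B16F10 melanoma cells into the spleen, and the sham arm received saline there. Both arms lost the spleen immediately afterwards, received 250000 B16F10 cells under the skin and were sampled on day 7. Each tissue and arm is 1 library, for which the labels name no number of mice. Lung cells were pressed through a 70 µm filter and passed over live/dead columns, and blood leukocytes were taken by density centrifugation, while the series' design text names CD45 enrichment kits.

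CD23 is a C-type lectin that binds IgE and the complement receptor CD21, is shed from the membrane by the protease ADAM10 and is induced by interleukin-4. In mice it is carried by mature follicular B cells, which recirculate between blood and lymphoid follicles, co-express IgM and IgD and present antigen on MHC class II, whereas the earliest transitional cells, marginal zone cells and B-1 cells carry little or none and later transitional cells carry it. The spleen is the main site where transitional cells mature and where marginal zone B cells reside, and every mouse here had been splenectomised.

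The promoters of Fcer2a and of 3 MHC class II genes are shown because the class II genes were higher in the Fcer2a-positive cells, as described further on. Each sequence gives the 200 bases upstream of the RefSeq transcription start on GRCm38.p6, the build of the deposited files, and capitals mark CTGATTGG, the CCAAT-containing Y box known from class II promoters. The Fcer2a stretch lies at chr8:3694175-3694374 on the minus strand, upstream of the first of 3 listed starts, H2-Aa at chr17:34287824-34288023 on the minus strand, H2-Eb1 at chr17:34305667-34305866 on the plus strand and H2-Oa at chr17:34092179-34092378 on the plus strand.
Fcer2a: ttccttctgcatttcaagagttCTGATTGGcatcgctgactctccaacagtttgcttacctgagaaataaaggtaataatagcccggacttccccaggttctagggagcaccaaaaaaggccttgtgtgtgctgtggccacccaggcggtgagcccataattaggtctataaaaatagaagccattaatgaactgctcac
H2-Aa: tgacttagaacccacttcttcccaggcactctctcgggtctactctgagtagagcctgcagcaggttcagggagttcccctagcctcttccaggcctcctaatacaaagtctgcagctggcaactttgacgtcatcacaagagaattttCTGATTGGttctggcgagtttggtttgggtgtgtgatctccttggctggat
H2-Eb1: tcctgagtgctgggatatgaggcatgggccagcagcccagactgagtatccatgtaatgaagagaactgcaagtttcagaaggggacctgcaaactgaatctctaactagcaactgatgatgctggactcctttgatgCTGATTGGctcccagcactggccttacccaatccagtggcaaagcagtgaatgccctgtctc
H2-Oa: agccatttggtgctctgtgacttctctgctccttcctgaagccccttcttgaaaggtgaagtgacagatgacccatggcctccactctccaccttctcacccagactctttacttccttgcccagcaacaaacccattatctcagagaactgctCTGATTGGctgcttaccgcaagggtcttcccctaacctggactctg
The motif starts 178, 51, 62 and 46 bases before the start of Fcer2a, H2-Aa, H2-Eb1 and H2-Oa. Searched on both strands, it was present in 3.54% of 32851 promoter windows of this length. Counted per gene, 4.11% of 27025 genes had it in at least 1 window. It was found in 4 of the 9 genes of the class II list that the promoter table holds (H2-Eb2 is the fourth), and the sequences printed were chosen for carrying it. A match describes these letters, not a bound site.

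Depth differed between the libraries, and it bears on any class defined by 1 transcript. The median number of UMIs per Fcer2a-positive cell, haemoglobin genes left out, was 1793.5 in metastasis lung, 2244 in sham lung, 2538 in metastasis blood and 3580 in sham blood. Haemoglobin took 78.1%, 65.7%, 78.6% and 43.7% of all UMIs of these libraries in the same order, so levels are given as CPM (UMIs per 1000000 UMIs of the class without haemoglobin genes). Scrublet, a doublet caller, scored 8, 19, 3 and 98 of the Fcer2a-positive cells above 0.3. Other-lineage marker UMIs numbered 10 or more in 5, 22, 2 and 46 of them. A single cell barcode was shared, between the lung and blood members of the metastasis arm.

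Follicular B cell markers that the rule did not use were present in most of the cells. Cd79a, the signalling chain of the B cell receptor, was found in 98.3% to 99.7% of them per library, but the rule counts its UMIs and so largely fixes this share. Fcmr, the receptor for secreted IgM, had a UMI in 53.6% of cells in metastasis lung and 59.7% in sham lung, and in 69.1% in metastasis blood and 79.2% in sham blood. Ighd, the IgD heavy chain, had a UMI in 67% and 65.0% of lung cells and in 73.8% and 79.4% of blood cells in that order of arms. The Fcmr share rose with the depth of the libraries, while the Fcmr level itself lay between 487.6 and 561.3 CPM in all 4. The Ighd share did not follow depth in lung, where the Ighd level was 742.3 CPM in metastasis and 552.2 in sham. Both Ighm and Ighd were caught in 64.3% of members against 49.8% of Fcer2a-negative resting cells in metastasis lung, 62.7% against 50.6% in sham lung, 72.1% against 58.5% in metastasis blood and 78.9% against 62.2% in sham blood. The shares with both transcripts were taken over all cells without matching on depth. The Fcer2a-negative cells were shallower, with medians of 1662, 2092, 2303 and 3201 UMIs without haemoglobin genes in that order of libraries. A switched isotype (IgG, IgA or IgE) had the most heavy-chain UMIs in 1 of the 3168 cells, in metastasis blood.

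Of the markers of neighbouring B cell stages, Dntt and Igll1, which mark B cell precursors in the bone marrow, were at 0 in the members of all 4 libraries, and Rag1, Rag2 and Vpreb1 were at 0 in 3 of them. Dntt and Igll1 were also at 0 in the Fcer2a-negative resting cells of sham lung, metastasis blood and sham blood. The other genes of the transitional list were detected in members, with Vpreb3 in 38.8% to 53.4% and Cd24a in 34.4% to 50.7% of cells per library. In Fcer2a-negative resting cells, likewise not matched on depth, these shares were 49.0% to 64.5% and 39.0% to 57.1%. Cr2, the complement receptor CD21, was low at 39.4 CPM in metastasis lung and 55.4 in sham lung, and at 85.2 CPM in each of the blood libraries. The label of resting follicular-like B cells was not contradicted by these markers.

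The share of resting B cells with an Fcer2a UMI was lower in the metastasis arm of both tissues at full depth. In lung it was 21.6% (exact Clopper-Pearson 95% interval 19.1% to 24.2%) in metastasis against 29.4% (27.5% to 31.5%) in sham, a ratio of 0.732 (0.64 to 0.837). In blood it was 27.2% (24.6% to 29.9%) in metastasis against 41.3% (39.9% to 42.7%) in sham, a ratio of 0.658 (0.594 to 0.728). The intervals cover counting error only, and no test between arms was made, since each tissue has 1 library per arm.

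The differences were smaller when Fcer2a was counted at equal depth, with the classes themselves still gated at full depth. After each cell had been thinned to 1000 UMIs, leaving out 44, 85, 8 and 21 shallower cells, the shares were 14.0% in metastasis and 16% in sham lung (ratio 0.872, 0.725 to 1.05). In blood they were 14.1% in metastasis and 17% in sham (ratio 0.829, 0.708 to 0.971), so the lung interval included equality and the blood interval did not. T cells, which should lack CD23, had an Fcer2a UMI in 0.117% to 0.364% of cells at full depth, with medians of 2921 to 5517 UMIs, and neutrophils in at most 0.395%. At 1000 UMIs per cell, B cells with 2 or more Cd83 and Cd86 UMIs carried Fcer2a in 22.2% and 23.2% of lung cells and in 17.5% and 20.0% of blood cells. Lambda light chain B cells carried it in 14.3% and 15.5% of lung cells and in 10.2% and 13.9% of blood cells.

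**Figure D1:**
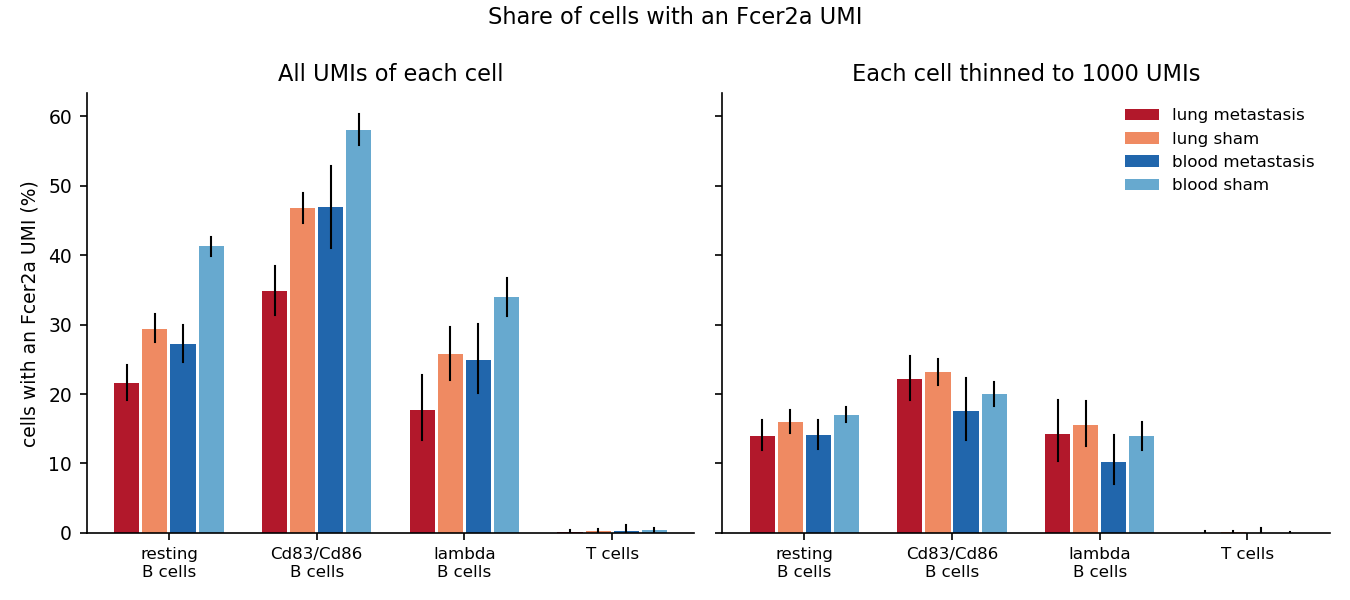
Percentage of cells with at least 1 Fcer2a UMI in 4 cell classes of each library, at full depth (left) and after thinning to 1000 UMIs per cell (right). Classes were gated at full depth, and black lines are exact 95% intervals of counting error. The resting B cell shares span 21.6% to 41.3% at full depth and 14.0% to 17% at equal depth, and T cells stay below 0.5% throughout.

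Within the class most cells held a single Fcer2a UMI. That was so for 68.3% of members in metastasis lung, 65.8% in sham lung, 64.5% in metastasis blood and 51.3% in sham blood. A cell without an Fcer2a UMI is therefore not a cell shown to lack the transcript, and the comparison that follows contrasts populations enriched and depleted for it. The Fcer2a level of the members, fixed by the rule, was 756.2, 652.3, 567.9 and 464.5 CPM in that order and ran inversely to depth.

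Fcer2a-positive cells were compared with resting B cells that passed the same gate with 0 Fcer2a UMIs, after equal numbers of both had been drawn per bin of UMIs in each library. The summed counts of the 8 library and class combinations were fitted with edgeR's quasi-likelihood test with the library as a block. Of 8049 genes tested, 691 (8.58%) differed, 358 being higher (4.45%) and 333 lower (4.14%) in Fcer2a-positive cells at a false discovery rate (FDR) under 0.05. The median log2 fold over all genes was 0.0032. The replicates are libraries of different tissues and arms, and lung and blood of an arm may come from the same mice. With the library as a block, the p-values measure only how far the difference between the classes varies over these 4 libraries. Calls numbered 3 higher and 11 lower without the library block, 161 and 97 with DESeq2, 202 and 181 without the sham blood library, and 277 and 199 without the sham lung library.

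Of 23 genes of follicular and recirculating B cells tested, 11 were higher, 1 lower and 11 not called in the Fcer2a-positive cells, with a median log2 fold of 0.17. Ighd stood at 755.7 CPM in Fcer2a-positive and 496.2 in Fcer2a-negative cells of metastasis lung and at 562.6 and 427.5 in sham lung. In blood it stood at 747.3 and 492.1 in metastasis and at 569.7 and 423.4 in sham. The positive cells were higher in 4 of 4 libraries, by a log2 fold of 0.52 ± 0.05 (SE; edgeR FDR 1.53e-13). Ighm moved the other way in each library, with 2682.7 to 2939.3 CPM in positive and 3567.0 to 4081.5 CPM in negative cells without overlap, a log2 fold of -0.41 ± 0.03 (edgeR FDR 1.18e-17).

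Receptors that guide B cells to lymphoid tissue were among those raised. Gpr183, the oxysterol receptor that positions B cells at the follicle edge, had 259.8 against 151.0 CPM in metastasis lung, 248.1 against 166.9 in sham lung, 339.5 against 185.7 in metastasis blood and 276.6 against 181.7 in sham blood (log2 fold 0.70 ± 0.07, edgeR FDR 3.67e-12). Its positive and negative values did not overlap, and it was called under every alternative tried. Ccr7, the receptor for T zone chemokines, had a log2 fold of 0.36 ± 0.05, and Ccr6, the receptor for CCL20, one of 0.88 ± 0.15, both higher in 4 of 4 libraries. Cxcr5, the receptor for the follicular chemokine CXCL13, was not called (0.12 ± 0.08, edgeR FDR 0.451).

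The other follicular genes were mixed. Satb1, a chromatin organiser, and Zfp318, which is required for IgD expression, rose by 0.56 and 0.61 on the log2 scale, and Icosl, the ligand of ICOS, by 0.75. Fcmr rose by 0.23 ± 0.05 (edgeR FDR 2.28e-04), but the call was lost with DESeq2 (FDR 0.0715), without sham blood (edgeR FDR 0.423) and with at least 2 Fcer2a UMIs required (edgeR FDR 0.0872). Tnfrsf13c, the receptor for the survival factor BAFF, was the member of the list that fell, by 0.51, and Tnfrsf13b, the related receptor TACI, fell by 0.44.

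Among known partners of CD23, only Cr2 passed the test of 6 tested. Cr2 had 40.1 CPM in positive and 67.1 in negative cells of metastasis lung, the reverse of 56.4 against 37.3 in sham lung, 89.9 against 53.4 in metastasis blood and 86.8 against 50.7 in sham blood. Its log2 fold was 0.70 ± 0.11 (edgeR FDR 4.70e-06), and the call was lost with DESeq2 (FDR 0.126) and without sham blood (edgeR FDR 0.198). Adam10, the sheddase, had a log2 fold of -0.09 ± 0.09 (edgeR FDR 0.689). Il4ra, the interleukin-4 receptor chain, had one of 0.17 ± 0.11 (edgeR FDR 0.449), and of 9 interleukin-4 response genes tested 2, the kinase gene Jak1 and the repressor gene Bcl6, were higher. Bcl6 lost its call under 8 of the 15 alternatives, DESeq2 (FDR 0.205) among them, and Jak1 without sham blood (edgeR FDR 0.203) and without the library block.

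**Figure D2:**
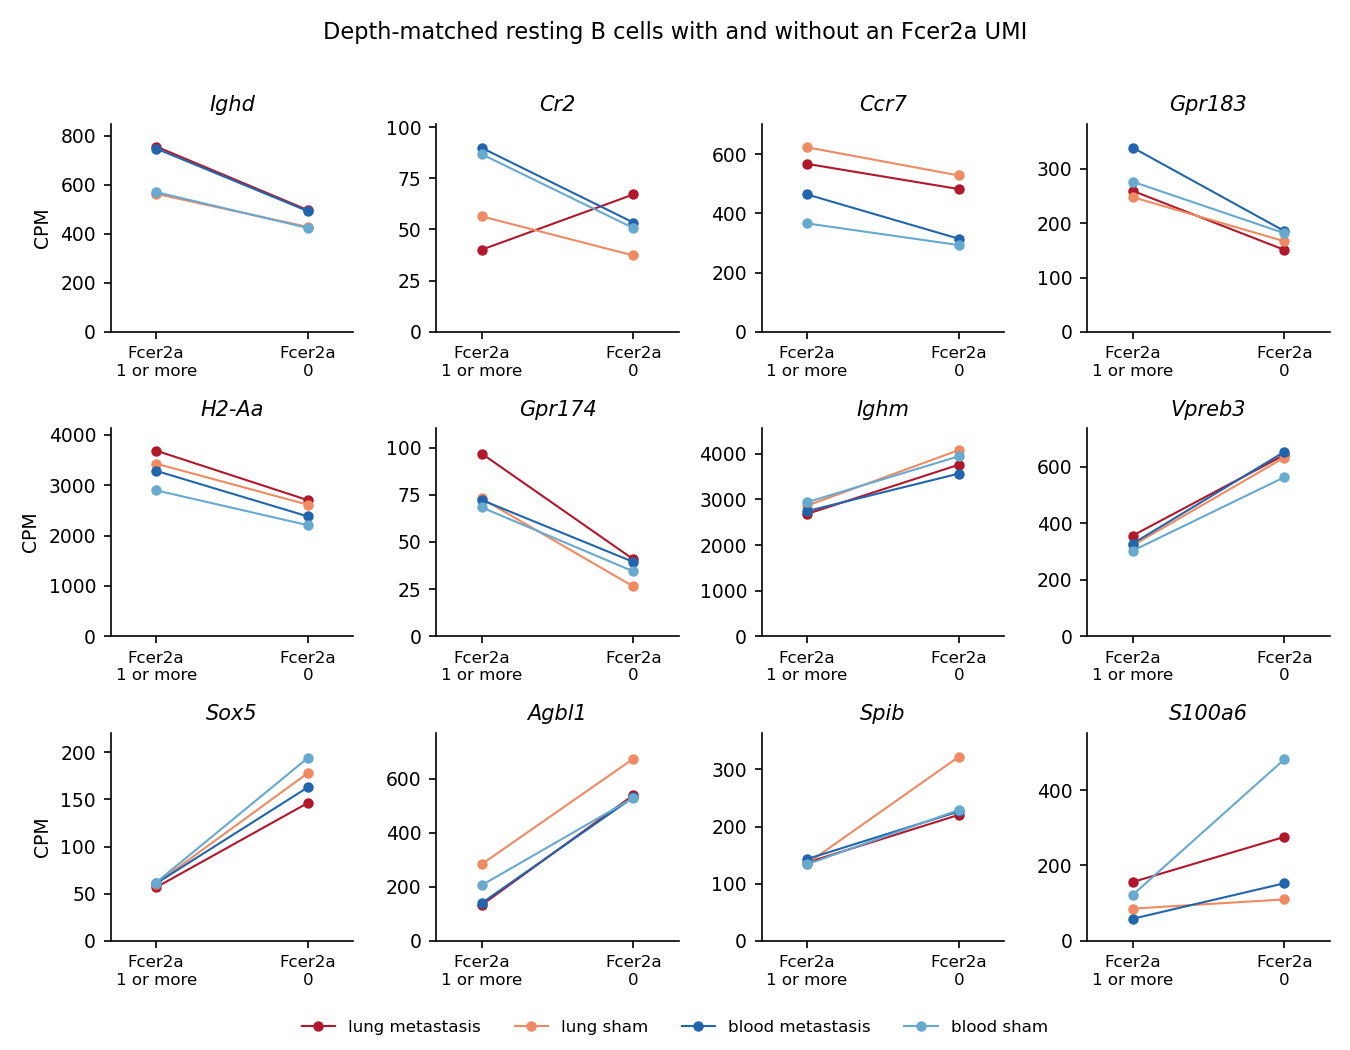
CPM of 12 genes in depth-matched resting B cells with 1 or more Fcer2a UMIs (left point) and with 0 (right point), 1 line per library and a linear axis from 0. Ighd, Ccr7, Gpr183, H2-Aa and Gpr174 lie higher and Ighm, Vpreb3, Sox5, Agbl1, Spib and S100a6 lower in the Fcer2a-positive cells of all 4 libraries, while Cr2 is lower in those of metastasis lung.

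MHC class II genes rose almost without exception. Of 12 tested, 11 were higher and none lower, with a median log2 fold of 0.37, and Ciita, the class II transactivator, was the 1 not called. H2-Aa, the alpha chain of I-A, had 3684.0 against 2701.7 CPM in metastasis lung, 3426.4 against 2611.4 in sham lung, 3283.1 against 2379.3 in metastasis blood and 2896.3 against 2205.1 in sham blood. Its log2 fold was 0.46 ± 0.03 (edgeR FDR 5.97e-20). H2-Ab1 and H2-Eb1 had log2 folds of 0.41 each, and the less abundant H2-Eb2 one of 0.72 ± 0.12. The peptide-loading genes H2-DMa, H2-DMb1 and H2-DMb2 and the modulators H2-Oa and H2-Ob rose by 0.24 to 0.43, and the invariant chain gene Cd74 by 0.14. Between 7 and 11 of the 12 were called higher under every alternative except that without the library block, where none was.

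Genes of less mature B cells ran lower. Of 9 transitional B cell genes tested, 5 were lower and 2 higher (median log2 fold -0.51). Vpreb3, a chaperone of the early B cell receptor, had 356.6 against 642.5 CPM in metastasis lung, 321.8 against 633.3 in sham lung, 328.1 against 653.6 in metastasis blood and 303.0 against 563.7 in sham blood. Its log2 fold was -0.89 ± 0.05 (edgeR FDR 1.95e-22) with no overlap between the classes. Akap12, a kinase scaffold, fell by 0.99, Cd93 by 0.89, Sox4 by 0.58 and Cd24a by 0.51, whereas Plaur, the urokinase receptor gene, and Ms4a4c rose by 0.69 and 0.66.

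Genes of B-1 and memory cells were lower as well: 6 of 9 tested fell and 1 rose (median log2 fold -0.43). S100a6, a calcium-binding protein gene, had 155.9 against 275.7 CPM in metastasis lung, 85.3 against 109.8 in sham lung, 58.3 against 152.6 in metastasis blood and 121.5 against 481.6 in sham blood. Its log2 fold was -1.5 ± 0.11 (edgeR FDR 9.00e-16), and it is abundant in other leukocytes, at 1444.6 CPM over kept barcodes without B cell transcripts. The share of cells with an S100a6 UMI differed little before matching. It was 7.59% of positive and 7.24% of negative cells in metastasis lung and 8.33% and 6.75% in sham lung. In blood it was 6.64% and 7.68% in metastasis and 8.27% and 9.3% in sham. In sham blood 169 positive cells held 1025 S100a6 UMIs and 270 negative cells held 5169. Bhlhe41, a transcription factor of B-1 cells, fell by 1.06, Anxa2 by 0.91 and Lgals1 by 0.78. Pdcd1lg2, which encodes the ligand PD-L2, was the gene that rose, by 0.73. Of 10 marginal zone genes tested, Cr2 rose, Cd36 and Hes1 fell, and the median was -0.10.

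The genes with the steepest declines, under the naming rule that asked for the same sign in all 4 libraries, reached further than these lists. Gas7, a cytoskeletal adaptor gene, fell by 2.14 ± 0.25, with 2.36 to 4.34 CPM in positive and 14.0 to 26.4 CPM in negative cells. Il18, a cytokine gene, fell by 1.70, and Sox5, a transcription factor gene, by 1.54 ± 0.09, with 56.7 to 61.8 CPM in positive and 146.2 to 194.0 CPM in negative cells. Agbl1, a carboxypeptidase gene, stood at 132.2 against 539.4 CPM in metastasis lung, 283.5 against 674.3 in sham lung, 139.3 against 531.6 in metastasis blood and 205.6 against 529.3 in sham blood (log2 fold -1.41 ± 0.06, edgeR FDR 1.39e-26). Coq7, of ubiquinone synthesis, fell by 1.22, and Cplx2, Slco5a1, Map2 and Akap17b had log2 folds of -0.99 to -1.43.

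At the other end of that ranking stood Crisp3, a secreted protein gene, at 1.2 ± 0.21 (edgeR FDR 1.39e-05), and Gpr174, a receptor for lysophosphatidylserine, at 1.12 ± 0.12 (edgeR FDR 4.31e-11). Gpr174 had 96.8 against 40.8 CPM in metastasis lung, 73.0 against 26.4 in sham lung, 72.2 against 39.4 in metastasis blood and 68.3 against 34.4 in sham blood. Rapgef4, a cAMP-activated exchange factor gene, rose by 0.92, the sulfotransferase genes Chst10 and Hs3st1 by 0.97 and 0.83, the cytokine receptor gene Il9r by 0.94, the signalling adaptor gene Traf1 by 0.85 and Gpr137c by 0.78. Bcl2a1b, a survival gene with near-identical copies between which reads may be split, rose by 0.96. Cables1 (1.09) and Cystm1 (0.90) were the least secure, with edgeR FDR 0.0385 and 0.0357 and calls lost under several alternatives.

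Signalling and transcription factor genes showed smaller differences. Of 19 genes of the B cell receptor and its activating pathway, 3 were higher (Cr2, Ighd and Prkcb) and 6 lower. Among the 6, beside Ighm, the signalling genes Vav1, Plcg2, Blk and Lyn had log2 folds of -0.12 to -0.32. Of the 15 alternatives, 13 lost the call of Lyn, 12 that of Prkcb, 9 that of Blk, 6 that of Vav1 and 5 that of Plcg2. Among inhibitory molecules Siglecg fell by 0.44, Cd72 by 0.40 and the phosphatase gene Ptpn6 by 0.28, while Fcrl1 and the phosphatase gene Inpp5d rose by 0.27 and 0.20. Of 24 transcription factor genes, Mef2c rose by 0.39 ± 0.03 and Ets1 by 0.18, and 6 fell. Spib, an Ets-family factor gene, fell by 0.83 ± 0.08, with 133.8 to 143.1 CPM in positive and 220.5 to 322.1 in negative cells, and Zeb2, Tcf3, Id3, Irf8 and Ebf1 had log2 folds of -0.10 to -0.45, of which Irf8 lost its call under 13 alternatives and Id3 under 9. Of 18 survival and NF-kB genes, Bcl2, Bcl2a1b, Rel and Nfkb1 were higher and Mcl1, Nfkbia, Tnfrsf13b and Tnfrsf13c lower. The calls of Nfkbia, Mcl1 and Nfkb1 were lost under 13, 8 and 5 of the 15 alternatives.

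Immediate early genes, which respond to stimulation and to tissue dissociation, were higher: 10 of 20 tested rose and 2 fell (median log2 fold 0.28). Junb had 826.5 against 616.1 CPM in metastasis lung, 859.1 against 589.3 in sham lung, 747.3 against 662.5 in metastasis blood and 810.0 against 620.2 in sham blood (log2 fold 0.43 ± 0.04, edgeR FDR 8.24e-12). Ppp1r15a rose by 0.77 and Nr4a1 by 0.54, and Atf3 fell by 1.04. The rule caps Cd83 and Cd86 at 1 UMI and leaves cells with that 1 UMI in both classes. Among members with neither, 9 of 17 tested genes of the list were still higher and none lower. Of 12 tested genes of the B cell activation list, Cd69, Icosl and Myc were higher and none lower (median log2 fold -0.0014). Myc lost its call under 11 of the 15 alternatives.

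Ribosomal protein genes rose in 70 of 82 cases and fell in none, by a median of 0.16. Of 22 type I interferon genes tested, 6 fell and Ly6a rose. Isg15 fell by 0.82, a call lost with DESeq2 (FDR 0.419), over all cells of both classes (edgeR FDR 0.0741), without cells rich in other-lineage UMIs (edgeR FDR 0.18) and in members with no Cd83 or Cd86 UMI (edgeR FDR 0.467).

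Transcripts of other cells also differed between the matched classes. All 5 red cell markers tested fell, with log2 folds of -0.34 to -1.17, and the monocyte markers Lyz2 and Ly6c2 fell by 0.93 and 1.14. Without cells over a Scrublet score of 0.3, Lyz2 was instead higher, by 1.22. The summed CPM of the 9 red cell markers, globins included and set against the haemoglobin-free total, ranged over the libraries from 96611.8 to 299628.6 in all Fcer2a-positive and from 109529.5 to 348187.4 in all Fcer2a-negative resting cells. The lung epithelial transcripts Scgb1a1 and Sftpc moved in opposite directions, and 4204 of the 4574 Scgb1a1 UMIs in metastasis lung members sat in 1 cell. T cell markers, 1 of 9 tested, did not pass, with 7.2 to 111.3 summed CPM in positive cells and 12.2 to 81.2 in negative ones. Of 2 NK cell markers tested, Gzma was higher, a call lost under 7 of the 15 alternatives. Over all cells, the summed NK markers had 601.2 CPM in positive against 451.1 in negative cells of sham lung and 134.9 against 45.8 in sham blood. In metastasis they had 74.2 against 204.1 in lung and 0 against 3.02 in blood. The part of these transcripts in the differences between the classes was not tested. Without cells over 5% haemoglobin UMIs, 294 genes were higher and 225 lower, and without cells with 10 or more other-lineage UMIs, 341 and 304.

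**Figure D3:**
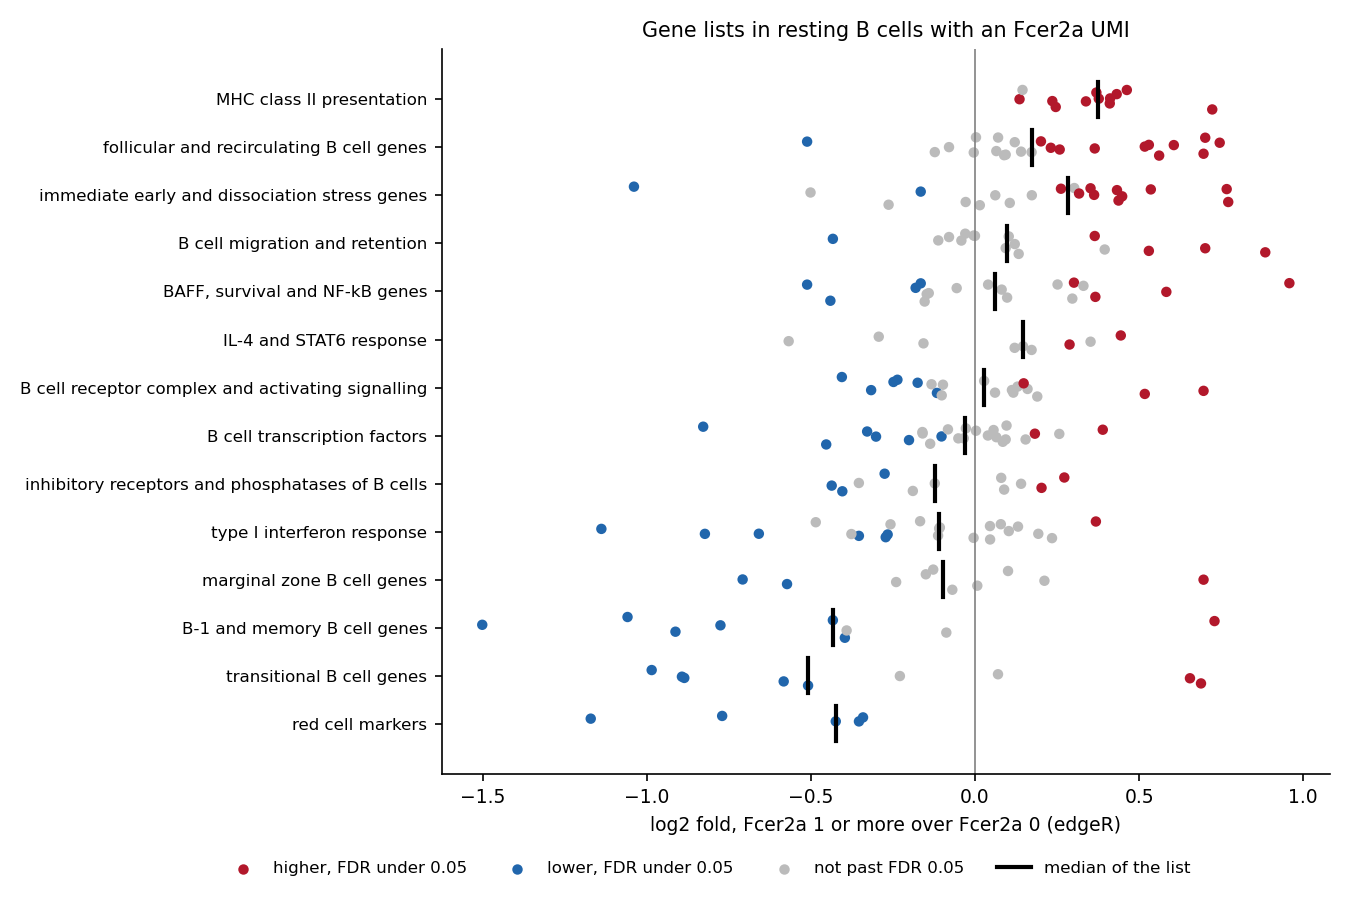
Log2 fold of each tested gene in 14 gene lists, Fcer2a-positive over Fcer2a-negative resting B cells, by edgeR with the library as a block; red and blue points are called at FDR under 0.05 and black bars are list medians. Class II genes lie to the right with a median of 0.37, and transitional and B-1 or memory genes to the left with medians of -0.51 and -0.43.

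Several genes changed most between 0 and 1 Fcer2a UMI, and in sham blood Cr2 and Satb1 also rose above it. In sham blood, the library with most cells, Ighd had 412.2 CPM in cells with 0, 550.2 with 1, 569.3 with 2 and 565.8 with 3 or more Fcer2a UMIs. Sox5 had 193.4, 67.4, 56.3 and 59.4 CPM over the same classes, and Vpreb3 611.7, 329.8, 273.1 and 266.9. Cr2 went on upwards, with 47.7, 76.2, 87.7 and 100.3 CPM, as did Satb1, with 202.9, 238.7, 280.9 and 282.9. The median depth of these cells was 3201, 3405, 3610 and 4065 UMIs, and all cells of each class were used here without matching. Sham lung gave Sox5 levels of 195.7, 64.3, 53.6 and 46.6 CPM. There Cr2 had 44.3, 51.2, 43.5 and 93.2 CPM and Satb1 628.5, 1049.9, 968.0 and 1263.5, so neither rose at every step. The highest classes of the metastasis libraries, with 21 and 39 cells, were too small to order.

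**Figure D4:**
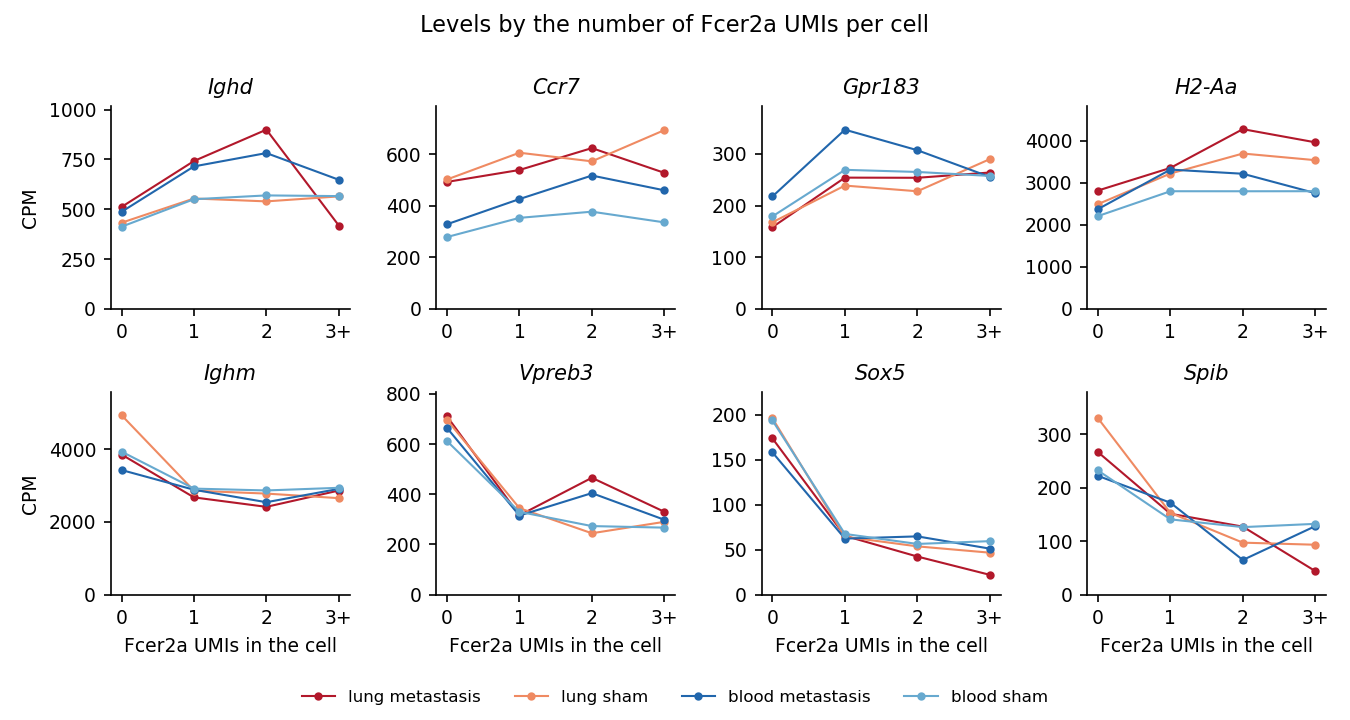
CPM of 8 genes in resting B cells with 0, 1, 2 and 3 or more Fcer2a UMIs, 1 line per library, on linear axes from 0. Ighd, Ccr7, Gpr183 and H2-Aa are higher and Ighm, Vpreb3, Sox5 and Spib lower from 1 UMI on than at 0, as in sham blood where Sox5 has 193.4 CPM at 0 and 67.4 at 1; the 3-or-more point of metastasis lung rests on 21 cells and its Ighd value falls below that at 0.

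Between the arms, the Fcer2a-positive cells of each tissue differed in few genes. With 1 library per group no test was made: a gene was called when its CPM differed by at least 1.5-fold and the exact 95% interval of counting error excluded equality. In lung, 264 of 5021 measured genes were called (5.26%), 113 higher (2.25%) and 151 lower (3.01%) in metastasis than in sham. In blood, 377 of 7565 were called (4.98%), 207 higher (2.74%) and 170 lower (2.25%). With haemoglobin genes left in the totals the splits were 86 and 194 in lung and 127 and 248 in blood. The same direction was called in both tissues for 17 genes higher (0.34%) and 9 lower (0.18%) of 4994, and 4 genes were called in opposite directions.

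Few identity genes of the cells reached the limits for a call between the arms. None of the 23 follicular genes was called in lung and 1, the inhibitory receptor gene Btla, in blood, where it had 471.8 CPM in metastasis against 312.6 in sham members. Fcmr had 501.0 CPM in metastasis against 487.6 in sham lung and 558.3 against 561.3 in blood. Ighd was above sham in both tissues without reaching the 1.5-fold limit, with 742.3 against 552.2 CPM in lung (log2 ratio 0.43, 95% interval 0.23 to 0.62) and 720.4 against 559.3 in blood (0.37, 0.24 to 0.49). No MHC class II gene was called between arms in either tissue.

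The type I interferon genes called between the arms were higher in metastasis members. Of 13 of that list measured in lung, 3 were higher (Isg15, Rsad2 and Ly6a) and none lower, with a median log2 ratio of 0.33 against -0.02 over all genes. Of 20 measured in blood, those 3 and Irf7 were higher and none lower, with a median of 0.38 against 0.03. Of the interferon gamma list, Irf1 was higher in lung (1 of 7 measured) and Gbp3 lower in blood (1 of 12). Isg15, a ubiquitin-like effector, had 120.6 CPM in metastasis and 20.6 in sham lung members (log2 ratio 2.55, 1.87 to 3.26) and 159.7 and 16.3 in blood members (3.29, 2.93 to 3.64). The Isg15 UMIs sat in few cells: 52 UMIs in 8 metastasis lung cells, 20 of them in 1 cell, and 133 UMIs in 17 metastasis blood cells, 44 of them in 1 cell. Barcodes without B cell transcripts held 1105.9 and 1533.0 CPM of Isg15 in these metastasis libraries, and the part of their RNA in the member values was not tested. Over all resting B cells, with or without Fcer2a, the lung log2 ratio of Isg15 was 0.23 and no longer called, while the blood call held. Rsad2, an antiviral enzyme gene, had 120.6 against 53.9 CPM in lung and 61.2 against 25.9 in blood, and without cells over a Scrublet score of 0.3 its lung log2 ratio was 0.40, against 1.16 with them.

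Ly6a, which encodes the surface protein Sca-1, was spread over more cells. It had 218.0 CPM in metastasis against 123.5 in sham lung (log2 ratio 0.82, 0.44 to 1.19) and 186.1 against 121.7 in blood (0.61, 0.36 to 0.86), in 58 and 93 cells of the metastasis libraries. These values exceeded the 49.3 and 17.1 CPM of barcodes without B cell transcripts. Apoe, a lipid carrier gene, had 248.2 against 157.6 CPM in lung and 449.0 against 222.9 in blood, beside 180.1 and 795.4 CPM in barcodes without B cell transcripts of the metastasis libraries, and its lung call was lost under 5 alternatives. Zc3h6 and Fbxo4 were higher and Dusp3, Dym, Ankrd33b and Atp6v1c1 lower in the metastasis members of both tissues, on 5 to 29 metastasis UMIs each.

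The highest ratios in metastasis lung came from single cells. Of 72 Wfdc2 UMIs there, 65 sat in 1 cell, all 55 of Retnla in 1 cell, and 28 of 53 of Cbr2 in 1 cell, transcripts that lung epithelial cells or macrophages are known for. NK cell markers ran the other way: 4 of 4 measured in lung and 2 of 2 in blood were lower in metastasis. Gzma had 16 UMIs in metastasis and 538 in sham lung members, and 0 in metastasis and 656 in sham blood members, where 14 cells held them all. The red cell marker Slc4a1 was called higher in metastasis members of both tissues. The part of these transcripts in other differences was not tested.

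In blood alone, Slc15a2, a peptide transporter gene, had 63.6 CPM in metastasis against 20.0 in sham members (log2 ratio 1.67, 1.2 to 2.13). Ptpn22, an inhibitory phosphatase gene, had 74.4 against 32.3 (1.20, 0.78 to 1.61), and Myc 64.8 against 35.0 (0.89, 0.44 to 1.31). The heat shock genes Hspa8, Dnaja1 and Hsph1 were lower in metastasis, by log2 ratios of -0.61 to -1.18, and no gene of that list was called in lung. That blood and lung differ in these genes was not tested.

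A larger share of measured genes was called between lung and blood members (12% in the metastasis and 13.4% in the sham arm) than between the arms (5.26% in lung and 4.98% in blood). The gene sets and cell numbers differed, and lung and blood also differ in preparation. In the metastasis arm 278 of 3809 genes (7.3%) were higher and 180 (4.73%) lower in lung than in blood members. In the sham arm 743 of 7703 (9.65%) were higher and 293 (3.8%) lower. Both arms gave the same direction for 146 genes higher (3.84%) and 34 lower (0.894%) of 3805, and none was called in opposite directions. With haemoglobin genes in the totals the splits were 160 and 378 in the metastasis arm and 393 and 673 in the sham arm, so the balance of directions rests on the scaling.

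Several of the genes with the highest lung over blood ratios in both arms are known as stimulus-induced. Nr4a1, an orphan receptor gene induced by antigen receptor signals, had 266.8 CPM in lung against 24.0 in blood in the metastasis arm (log2 ratio 3.47, 2.78 to 4.24) and 229.3 against 32.6 in the sham arm (2.82, 2.58 to 3.05). Dusp5, a phosphatase of ERK kinases, had 109.0 against 16.8 and 128.5 against 19.6 CPM, and Crem, a cAMP-responsive regulator gene, 160.1 against 37.2 and 229.3 against 31.7. Gfod1, Hs3st1, Litaf, Gpr171, March3 and Odc1 were higher in lung by log2 ratios of 1.58 to 2.31 in both arms. Satb1 had 958.0 against 291.7 CPM in the metastasis arm and 1061.8 against 261.2 in the sham arm. The immediate early list did not move alike. In the metastasis arm 4 of 16 measured, Nr4a1 and Dusp5 included, were higher and 4 lower in lung (median log2 ratio -0.28). Dusp1 and Ppp1r15a were among the 4 lower. In the sham arm 5 of 19 measured, Nr4a1 and Dusp5 included, were higher and 2 lower (median 0.11). Of the B cell activation list, none of 9 measured was higher and Nfkbid was lower in the metastasis arm (median log2 ratio -0.26), and Gadd45b alone of 12 was called, higher, in the sham arm (0.15).

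Of the B cell migration and retention list, 2 of 12 measured genes were higher in lung in the metastasis arm and 6 of 15 in the sham arm, and none was lower. Cxcr5 had 236.6 CPM in lung against 135.7 in blood in the metastasis arm and 220.0 against 135.8 in the sham arm. S1pr1, the receptor for egress into blood, had 225.0 against 140.5 and 257.6 against 129.2. Cr2 was lower in lung, with 39.4 against 85.2 CPM in the metastasis arm (log2 ratio -1.11, -1.97 to -0.33) and 55.4 against 85.2 in the sham arm (-0.62, -0.98 to -0.28). Ighd did not differ beyond counting error in either arm (0.04, -0.16 to 0.24, and -0.02, -0.13 to 0.09).

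Lower in lung in both arms were Cdk8, a Mediator kinase gene, with 215.7 against 917.3 CPM in the metastasis arm and 246.3 against 1490.7 in the sham arm, and Cmss1, with 1899.8 against 4486.7 and 2032.1 against 6232.5. Blood barcodes without B cell transcripts held 1452.8 and 1610.5 CPM of Cdk8 and 8173.7 and 7266.9 CPM of Cmss1 in these arms. Il12a, Gimap7, Ppp1r18, Sesn1, Pdcd4, Rap1gds1, Ifi206 and Tsc22d4 were lower by log2 ratios of -0.77 to -1.48. Of the STAT3 and interleukin-1 response list, 5 of 10 measured were higher and none lower in lung in the metastasis arm and 5 of 16 higher and 1 lower in the sham arm, with Cebpb, Stat3 and Pim1 in both. All 5 red cell markers measured were higher in lung members in both arms, and all 7 NK markers in the sham arm, where 22 of 600 lung and 46 of 2043 blood members had 10 or more other-lineage UMIs. The lung was dissociated and the blood was not, and preparation and tissue cannot be told apart in these libraries.

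**Figure D5:**
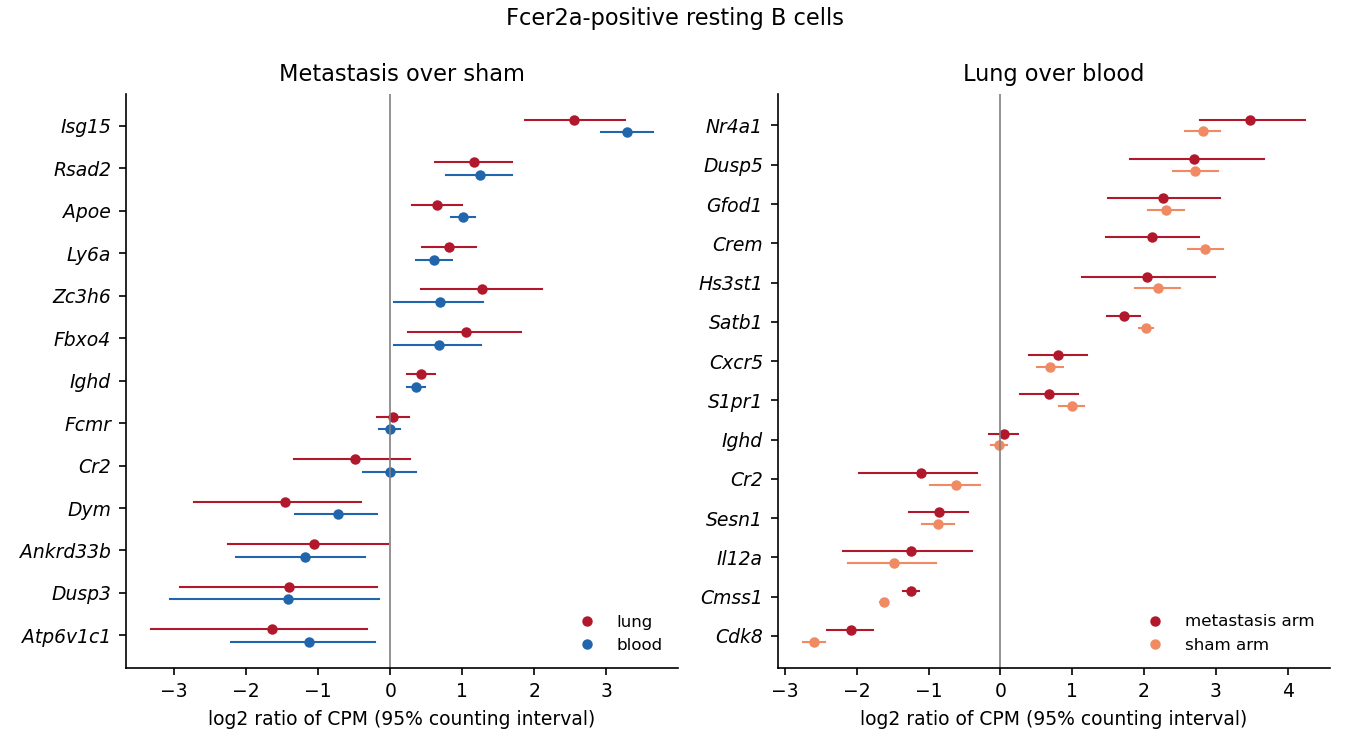
Log2 ratio of CPM in Fcer2a-positive resting B cells for metastasis over sham in lung and blood (left) and for lung over blood in the metastasis and sham arms (right), with exact 95% intervals of counting error and 1 library per group. Isg15 reaches 2.55 in lung and 3.29 in blood on the left, the Fcmr ratios are 0.04 and -0.01, and Nr4a1 (3.47 and 2.82) and Cdk8 (-2.09 and -2.60) mark the ends on the right.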

How the data were processed

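Single-cell 3′ libraries of lung and blood from each arm were analysed from the UMI counts per gene and barcode that the authors deposited. The submitters' processing notes name the genome build GRCm38.p6 with Cell Ranger 7.0.0, Seurat 4.3.0.1 and R 4.3.1. The deposited matrices hold 32285 genes. Cells were gated on raw UMIs as stated in the opening. Haemoglobin genes were left out of the CPM totals and of the total behind the S100a8 and S100a9 share. They were kept in the gene count and in the total behind the mitochondrial share. Doublets were scored with Scrublet in scanpy 1.11.5 (expected rate 10%) and kept. For the comparison with Fcer2a-negative cells, equal numbers of cells were drawn in 4 bins per log2 unit of UMIs (seed 1), summed to 8 profiles, and fitted in edgeR 4.0.16 (R 4.3.3) with TMM scaling and library as a block, leaving out the genes of the rule and haemoglobin genes. The fit and the intervals were first tested on simulated counts. In that of the fit, with the same dispersion for all genes, 49 of 100 genes changed by a log2 fold of 0.5 were called. Of those changed by 1, 99 of 100 were called, and of 7823 unchanged genes 8 were. A gene not called in the fit is therefore not shown to be equal. Between single libraries, genes with at least 50 UMIs over both and a mean of at least 10 CPM were compared by exact conditional binomial intervals at the 95% level. Such intervals cover counting error only.

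Named genes were the 12 highest and 12 lowest log2 folds among calls with 1 sign in 4 libraries, 10 per direction between libraries, those called alike in both tissues or arms, 10 genes followed throughout, and members of gene lists. Genes whose CPM was under 0.5 times that of barcodes without B cell transcripts were not ranked. The members and lists were chosen with earlier results of these data known. Alternatives were all cells, another draw, 2 or more Fcer2a UMIs, 400 genes and 5% mitochondrial UMIs, other totals and filters, no block, DESeq2 1.42.0 and each library left out. Leaving out cells with 10 or more other-lineage UMIs, and members with any Cd83 or Cd86 UMI, were chosen after seeing the data. A few genes that these rules name are not reported here.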

Additional observations from a re-analysis of the deposited data

Results flagged for a closer look

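A few genes were called in opposite directions between metastasis and sham members in lung and in blood, and the difference between the tissues was not tested. S100a6 had a log2 ratio of 0.87 in lung (153.1 CPM in metastasis, 83.8 in sham) and -1.17 in blood (55.2 in metastasis, 124.1 in sham), where 1 sham cell held 123 of its UMIs. Farsa, a subunit of phenylalanyl-tRNA synthetase, had -1.15 in lung and 0.74 in blood. Topors, a ubiquitin and SUMO ligase gene, had -1.12 in lung and 0.66 in blood. Ints6, an Integrator subunit gene, had 0.64 in lung and -0.59 in blood.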

How the results depend on the processing

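Counts of genes called between Fcer2a-positive and Fcer2a-negative cells were the most dependent on settings. With at least 2 Fcer2a UMIs 151 genes were higher and 97 lower, in members with no Cd83 or Cd86 UMI 222 and 150, without the library block 3 and 11, and with DESeq2 161 and 97. Leaving out each library gave 202 to 351 higher and 181 to 304 lower. Gzma turned to -0.0833 with DESeq2 and ran between -0.0772 and 0.6288 with a library left out, Lyz2 to 1.22 without high Scrublet scores, and Bpgm and Scgb1a1 to 0.0359 and -0.62 in members with no Cd83 or Cd86 UMI. The cause was not tested. Of 157 genes named or listed, 40 kept their call status under every alternative and 117 lost or gained a call under at least 1.

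Requiring 2 Fcer2a UMIs, the metastasis and sham shares were 6.83% and 10.1% in lung, and 9.66% and 20.1% in blood, whose ratio was 0.48. At 1000 UMIs per cell they were 14.0%, 16%, 14.1% and 17%, with ratios of 0.872 and 0.829. With 400 genes and 5% mitochondrial UMIs the sham blood share was 43.3%.

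For metastasis over sham, lung calls numbered 219 higher with no minimum CPM, 75 higher and 60 lower with 2 Fcer2a UMIs, 176 higher over all resting B cells and 65 higher with no Cd83 or Cd86 UMI. Blood calls numbered 127 higher with haemoglobin in the total and 77 lower over all resting B cells. Calls shared by both tissues numbered 10 higher and 15 lower with haemoglobin in the total, 10 higher with 400 genes and 5%, 8 without high Scrublet scores, 5 without cells over 5% haemoglobin, 4 higher and 3 lower with 2 Fcer2a UMIs, 32 higher over all resting cells, 8 with no Cd83 or Cd86 UMI, and 21 lower with no minimum CPM.

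For lung over blood, haemoglobin in the total gave 160 higher and 378 lower in the metastasis arm, 393 and 673 in the sham arm, and 78 and 108 in both. In the metastasis arm there were 513 and 300 with no minimum CPM, 109 and 61 with 2 Fcer2a UMIs, 622 and 291 over all resting cells, and 149 higher with no Cd83 or Cd86 UMI. In both arms there were 238 and 63, 49 and 18, 313 and 76, and 85 higher under those settings. Over all resting cells the log2 ratio turned to -0.0262 for Letm1 and 0.0827 for Dusp3 in lung, to 0.17 for Atp6v1c1, 0.0869 for Sox4 and 0.0444 for Akap12 in blood, and to 0.17 for Bst2 between tissues in the metastasis arm. In the sham arm Fcer1g turned to -1.21 without high Scrublet scores and -0.46 with 2 Fcer2a UMIs, and Lgals1 to -0.0702 without cells rich in other-lineage UMIs.

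No paired analysis was possible because the labels carry no replicate numbers that would pair libraries; positive and negative cells of a library were paired through the library block. Depth limits the class itself, since a cell without an Fcer2a UMI is not shown to lack the transcript.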
